A study of Rattus norvegicus with 12 samples.

Results

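The rat MHC class II genes RT1-Da, RT1-Db1, RT1-Ba and RT1-Bb, and Cd74, which encodes the invariant chain, were followed through the cell types of the healthy rat liver. These 5 genes were chosen by symbol, and all 5 were among the 32883 genes of the count tables. MHC class II molecules are heterodimers of an alpha and a beta chain that present peptides from endocytosed protein to CD4+ T cells. RT1-Da and RT1-Db1 encode the alpha and beta chains of the rat RT1-D molecule, and RT1-Ba and RT1-Bb those of RT1-B. The invariant chain Cd74 fills the peptide groove of new class II molecules and guides them to endosomes, where cathepsins cleave it. Dendritic cells and B cells are the standard bearers of class II, macrophages carry it at levels that change with their state, and the class II transactivator Ciita switches these genes on together.

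The rats were healthy males with no agent or engineered allele named in the labels. Cells of the total liver homogenate (TLH), freed by collagenase, came from 2 Dark Agouti (DA) and 2 Lewis (LEW) rats; the series text gives an age of 8 to 10 weeks, while the deposited names give 10 weeks for DA and 13 weeks for LEW, and the study's methods give an age above all of these and describe the strains as age matched. If the names hold, age and strain cannot be told apart. Immune-enriched cells came from 1 DA and 1 LEW rat, named as 9 weeks old, after extra washing and removal of red cells. Nuclei extracted from liver tissue came from 2 DA and 2 LEW rats, and Visium sections, in which each spot covers several cells, from 2 Wistar livers labelled A and B. The study describes the nuclei as coming from additional rats, while TLH and nuclei libraries carry the same animal numbers in their names. Where nothing names separate cohorts, p-values measure the spread between these samples.

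Library totals were 61441846 to 92484173 unique molecular identifiers (UMIs, 1 for each captured transcript) in TLH cells, 48255870 and 60005133 in immune-enriched cells, 8039397 to 15186970 in nuclei and 34449562 and 34827603 in the sections. After filtering, 3844 to 7112 TLH cells, 1163 DA and 2677 LEW immune-enriched cells and 2205 to 5262 nuclei were kept. Pairs of nuclei libraries shared 1 to 6 kept barcodes, and barcodes of TLH and immune-enriched cells were not analysed here. The matrices of the latter came with no gene names, and their 32883 rows were named in the order of the gene list that the nuclei and the sections share, so their gene names rest on that order. DA, LEW and the reference genome carry different RT1 haplotypes, so for the RT1 genes a difference in alignment and a difference in transcript level cannot be told apart when the strains are compared within a class. Cd74 lies outside the MHC. RT1-Db1 has a near-identical neighbour, RT1-Db2, and its counts are uncertain to the extent that reads were split or dropped between them.

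The promoters are shown because shared promoter letters are the textbook feature of this gene group. Class II and Cd74 promoters are known for an X box bound by the RFX complex (Rfx5, Rfxap, Rfxank) and a Y box bound by NF-Y (Nfya, Nfyb, Nfyc), on which Ciita assembles. The sequences are RefSeq's for GRCr8, which is not the build of the counts, and all 5 genes were matched in that table. They are printed in the direction of transcription, and capitals mark matches to letters chosen for the X box (C, any 2 bases, G, any 2 bases, AC, any 3 bases, TG) or to those of the Y box (ATTGG), either strand being allowed.
RT1-Da, chr20:4515324-4515376, plus strand: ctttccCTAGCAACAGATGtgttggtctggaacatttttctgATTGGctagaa
RT1-Db1, chr20:4560232-4560283, minus strand: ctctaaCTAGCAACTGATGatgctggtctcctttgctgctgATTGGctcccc
RT1-Ba, chr20:4576974-4577024, plus strand: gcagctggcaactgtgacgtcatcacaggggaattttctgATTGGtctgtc
RT1-Bb, chr20:4604169-4604220, minus strand: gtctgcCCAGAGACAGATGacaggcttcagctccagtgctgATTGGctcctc
Cd74, chr18:56526981-56527027, plus strand: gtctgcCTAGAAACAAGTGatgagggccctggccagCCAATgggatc
X and Y stood 30 bases apart, start to start, in Cd74, 35 in RT1-Db1 and RT1-Bb and 36 in RT1-Da. RT1-Ba had the Y letters and no match to the X letters used here, which says only that these letters are not in its window. Within 250 bases before to 50 after the start, X was found in 11.6% and Y in 37.5% of 33469 promoters, and X followed by Y at 20 to 45 bases in 0.263% (88 promoters). The pair was held by 4 of the 5 members and, among related genes, by RT1-Db2 and RT1-DOb but not by RT1-DMa or RT1-DOa.

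Cells were assigned to classes by UMIs of marker genes, none of which is a member. A cell needed at least 2 distinct markers and 3 UMIs of a list (for Kupffer cells Clec4f, Vsig4, Cd5l, Marco and Cd163). A "Lyz2 myeloid" cell passed no such gate and carried Lyz2 with other leukocyte genes and at most 1 Kupffer marker. Cells needed at least 2 Lyz2 UMIs and 3 of the other genes, and nuclei at least 1 and 2. TLH libraries gave 347 to 626 Kupffer, 26 to 38 Lyz2 myeloid, 10 to 24 B, 191 to 786 endothelial and 2615 to 4503 hepatocyte cells. Conventional dendritic cells (cDC, 1 to 7 cells) and plasmacytoid dendritic cells (pDC, 5 to 8 cells) were too few there for a test, and the cDC marker Flt3 was at 0 in them. Dendritic cells with too few markers for these gates can fall into the Lyz2 myeloid class. The study describes its TLH cluster of macrophages and monocytes as also holding T cells, cDC and pDC. The part of such cells in the class II level of Lyz2 myeloid cells was not tested. In the immune-enriched libraries the cDC gate held 17 DA and 4 LEW cells with Xcr1 at 313 to 389 UMIs per 1000000 UMIs of the class (CPM). Albumin transcripts, which only hepatocytes make, stood at 12768 to 20635 CPM in TLH Kupffer cells against 24635 to 31499 in hepatocytes, so transcripts of other cells were abundant in the TLH droplets. The hepatocyte class is therefore given below as a reference in each library, and a TLH droplet of that class cannot be told from one holding free RNA. It is no pure measure of background. Some of its cells carried leukocyte genes, and T/NK cells of the TLH libraries had less Cd74 than this class. Whether a difference in a class came from more cells with the transcript or more transcript per cell is given where the counts allow.

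Among the 7 gated classes, the class II genes and Cd74 were lowest in hepatocyte and endothelial cells, several-fold higher in Kupffer cells, higher again in Lyz2 myeloid cells and highest in cDC, in every TLH library. Kupffer cells, the resident macrophages of the sinusoids, had Cd74 at 1149 and 967 CPM in the DA rats and 639 and 1328 in the LEW rats. Lyz2 myeloid cells had 7263 and 10730 CPM in DA and 6046 and 9475 in LEW. The 2 classes did not overlap in any of the 5 genes (3.77% of genes were apart in this direction), and the strains did. Hepatocyte-class Cd74 was 243 and 228 CPM in DA and 58.7 and 103 in LEW, and endothelial Cd74 was 144 and 187 in DA and 99.7 and 191 in LEW. B cells, of which each TLH library held at most 24, had Cd74 at 1328 and 3501 CPM in DA and 3122 and 5005 in LEW. The few TLH cDC had 14745 to 19205 CPM and the pDC 2856 to 4294 CPM.

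RT1-Da followed the same order. It stood at 348 and 293 CPM in DA and 278 and 589 in LEW Kupffer cells, and at 2482 and 4064 in DA and 3109 and 4882 in LEW Lyz2 myeloid cells. In B cells it was 766 and 1139 CPM in DA and 923 and 1583 in LEW, and in the hepatocyte class 76.7 and 85.5 in DA and 23.4 and 53.3 in LEW. RT1-Db1, the partner chain, ranged from 292 to 779 CPM in Kupffer cells and from 2133 to 5452 in Lyz2 myeloid cells. RT1-Ba ranged from 179 to 360 in Kupffer and from 1876 to 3281 in Lyz2 myeloid cells, and RT1-Bb from 155 to 340 and from 1974 to 3840. T/NK cells had Cd74 at 48.3 to 88.8 CPM in TLH libraries, below the hepatocyte class of the same library in all 4. In the immune-enriched libraries the order was the opposite, with T/NK Cd74 at 714 CPM in DA and 52.9 in LEW against 7.1 and 11.3 in the hepatocyte class. The DA value leaned on 3 of its 233 T/NK cells, picked out by their member UMIs. The 5 genes together stood at 2139 CPM with these cells and at 33.9 without them.

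**Figure D1:**
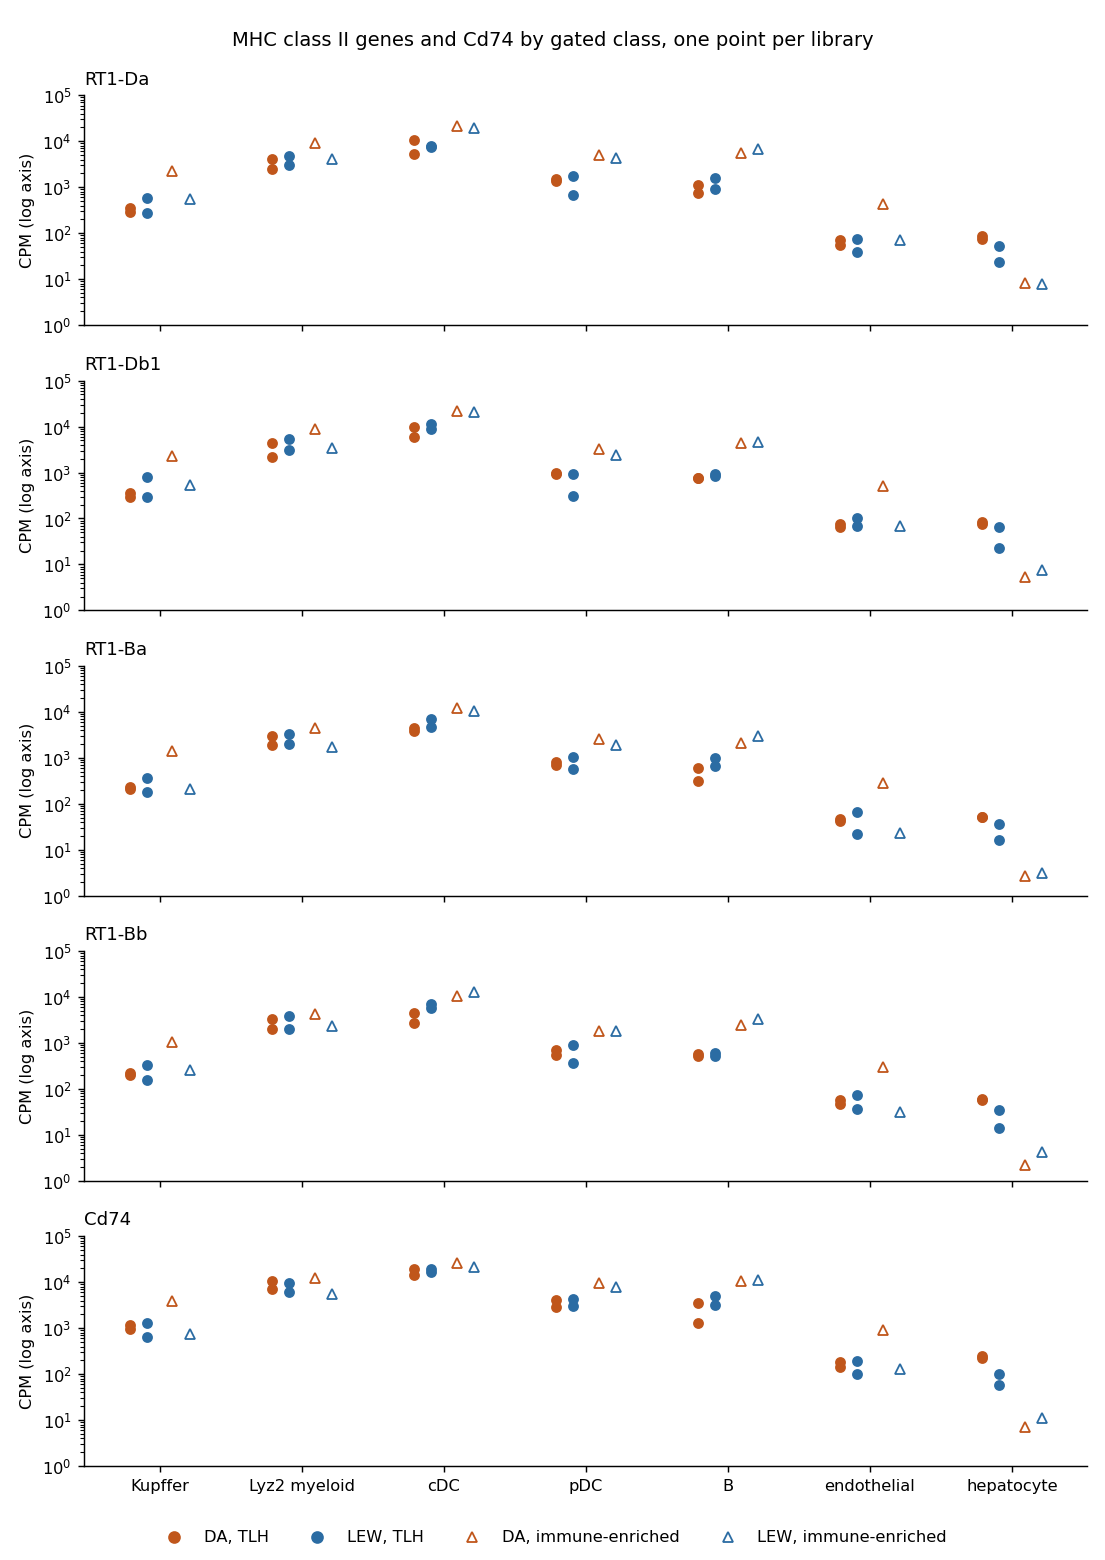
CPM of the 5 genes (log axis) in the 7 gated classes, 1 point per library, with TLH rats as filled circles, immune-enriched libraries as open triangles, DA in orange and LEW in blue. In each panel the TLH Kupffer points sit between the TLH hepatocyte and the TLH Lyz2 myeloid points, and cDC points are highest within each library. The DA immune-enriched Kupffer point stands at 3906 CPM of Cd74 against 752 for LEW.

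The order of the classes was tested on UMI sums per rat and class with the rat as a block (edgeR's quasi-likelihood test, Benjamini-Hochberg adjustment over the 7649 genes tested). From Kupffer to Lyz2 myeloid cells all 5 members rose, by 7.82-fold for Cd74 (log2 2.97, SE 0.40, adjusted p = 0.000208), 8.56-fold for RT1-Db1, 9.38-fold for RT1-Da, 10.1-fold for RT1-Ba and 11.7-fold for RT1-Bb (log2 3.55, SE 0.32, adjusted p = 5.32e-06). Of all genes, 9.36% were called and 3.87% were called higher, and the median difference of all genes was -0.20 on the log2 scale. From endothelial to Kupffer cells all 5 rose, by 4.41-fold (RT1-Bb) to 6.67-fold (Cd74), where 14.5% of genes were called higher and 28.5% were called. From the hepatocyte class to Kupffer cells all 5 rose, by 4.50-fold (RT1-Bb) to 5.37-fold (RT1-Db1), where 22.4% of genes were called higher and 52.1% in all. These 3 counts stayed at 5 of 5 without any 1 rat.

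For endothelial cells against the hepatocyte class, 0 of 5 members were called against 38.4% of genes. Log2 differences ran from -0.34 (SE 0.41, Cd74) to 0.03 (SE 0.38, RT1-Bb). The unadjusted p-values of the 5 were 0.40 to 0.95. Liver sinusoidal endothelium is known as a site of antigen presentation. The libraries differed in direction: the 5 genes together stood at 357 CPM in endothelial cells against 503 in the hepatocyte class and at 429 against 511 in the DA rats, and at 266 against 135 and 509 against 292 in the LEW rats. In the immune-enriched libraries they stood at 2419 against 25.3 in DA and 323 against 33.8 in LEW, and without cells carrying leukocyte genes (18 of 225 and 28 of 324 endothelial cells) at 42.3 against 10.4 and 7.1 against 5.9. The test over the 4 TLH rats averages opposite directions, and a p above the threshold does not show equal levels.

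B cells stood below Lyz2 myeloid cells, with 4 of 5 members called lower against 3.9% of all genes (4.22% called in either direction). RT1-Bb was 5.57-fold lower (log2 -2.48, SE 0.43, adjusted p = 0.00417), RT1-Db1 5.26-fold, RT1-Ba 4.42-fold and RT1-Da 3.85-fold (edgeR, adjusted p up to 0.00999). Cd74 was -1.51 (SE 0.41, adjusted p = 0.0704). The 2 classes did not overlap in any member (5.1% of genes were apart with B cells lower). Without the second DA rat (2.6% of genes called) or without the second LEW rat (2.5%) 0 of 5 were called, with RT1-Bb at -2.32 and -2.22. Leaving out endothelial and hepatocyte-class cells that carried leukocyte genes gave 5 of 5 called (4.38%). The B and Lyz2 myeloid sums were unchanged there, so only the shared fit moved. The median difference of all genes was -0.29.

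In the immune-enriched libraries, with 1 library a strain and no test, B cells stood far higher than in TLH cells. B-cell Cd74 was 10648 CPM in DA and 11275 in LEW, and RT1-Da was 5589 and 6642. In LEW these values exceeded those of Lyz2 myeloid cells (Cd74 5462, RT1-Da 4029), and in DA they stood below them (Cd74 12413, RT1-Da 9204). Immune-enriched cDC had the highest levels, with Cd74 at 26507 CPM in DA and 21461 in LEW and RT1-Da at 21092 and 19927, and pDC had Cd74 at 9834 and 7831. Together the 5 genes reached 91161 CPM in DA cDC. The protocols, chemistries and depths differed between the TLH and immune-enriched libraries, and the part of each was not tested.

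To compare cells at equal depth, each cell was thinned to 1000 UMIs. Cd74 was then found in 16.7% to 34.9% of TLH Kupffer cells, 51.4% to 89.5% of Lyz2 myeloid cells and 70.0% to 100% of B cells. In the hepatocyte class, which should lack the gene, the share was 3.4% to 10.6%, and in endothelial cells 3.8% to 9.6%. Without thinning, the Kupffer shares were 27.4% to 48.4% at class medians of 2070 to 3411 UMIs, and those of the hepatocyte class 7.2% to 17.2% at 1789 to 2530. Kupffer shares exceeded the hepatocyte share of the same library in all 4 TLH libraries, and endothelial shares did so in 1 of 4.

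Class II transcripts were concentrated in a minority of Kupffer cells. The 10% of Kupffer cells with most member UMIs held 65.2% and 77.3% of all member UMIs of the class in DA, and 91.3% and 84.5% in LEW. After thinning, 54.9% to 79.3% of TLH Kupffer cells had no member UMI at all. Cells with at least 10 member UMIs of 1000, called class II-high here, numbered 31 of 475 (6.5%) and 34 of 626 (5.4%) in DA and 15 of 347 (4.3%) and 32 of 360 (8.9%) in LEW. In Lyz2 myeloid cells the class II-high shares were 57.7% and 86.8% in DA and 34.3% and 68.6% in LEW. That class was split as well, since 7.9% to 48.6% of its cells had no member UMI after thinning. Of B cells, 1 of 10 and 1 of 18 in DA and 5 of 24 and 7 of 14 in LEW were class II-high in TLH libraries, against 97.0% (DA) and 96.0% (LEW) in the immune-enriched ones.

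Class II-high Kupffer cells were set beside the remaining Kupffer cells of the same library as a description, since member UMIs chose them. Marco, a scavenger receptor, was lower in them in 6 of 6 TLH and immune-enriched libraries: 82.6 against 1208 CPM and 190 against 1441 in the DA TLH rats, 1188 against 2703 and 304 against 3071 in the LEW TLH rats. It was 12.5 against 6782 CPM in DA and 1989 against 8401 in LEW immune-enriched cells. The summed Kupffer list was lower in them in 6 of 6 as well, at 3072 against 5698 and 4936 against 6480 CPM in DA TLH, 5730 against 9693 and 4655 against 10324 in LEW TLH, and 10426 against 22021 (DA) and 15030 against 20784 (LEW) in immune-enriched cells. Within that list Clec4f, the lectin that marks Kupffer cells, differed less than Marco: 1198 against 1679 and 2031 against 1961 CPM in DA TLH, and 1765 against 2494 and 1793 against 2753 in LEW TLH. Lyz2, the lysozyme of monocytes and macrophages, was higher in 6 of 6, at 266 to 1846 CPM in class II-high against 14.3 to 78.1 in the other TLH Kupffer cells.

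The summed cDC list was also higher in 6 of 6, at 96.3 to 220 CPM against 2.6 to 15.7 in TLH cells. The pDC list was at 0 in the class II-high Kupffer cells of every TLH library, and the B list was at 0 to 48.1 CPM against 5.0 to 589 in the rest. Their median depths were above those of the rest in all 4 TLH libraries, at 2215 against 2060.5 and 3573.5 against 2930.0 UMIs in DA and 3800.0 against 3372 and 3108.5 against 3050.5 in LEW. In the immune-enriched libraries they were shallower (10137 against 10747 in DA, 8786 against 13856 in LEW). In nuclei only 4 Kupffer nuclei of the second DA and 2 of the second LEW library were class II-high, and there the cDC list was at 0 against 34.9 and 19.4 CPM in the rest and Lyz2 at 362 against 0 and 0 against 3.2. Droplets holding a Kupffer cell with another cell were not called as such, and their part was not tested.

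**Figure D2:**
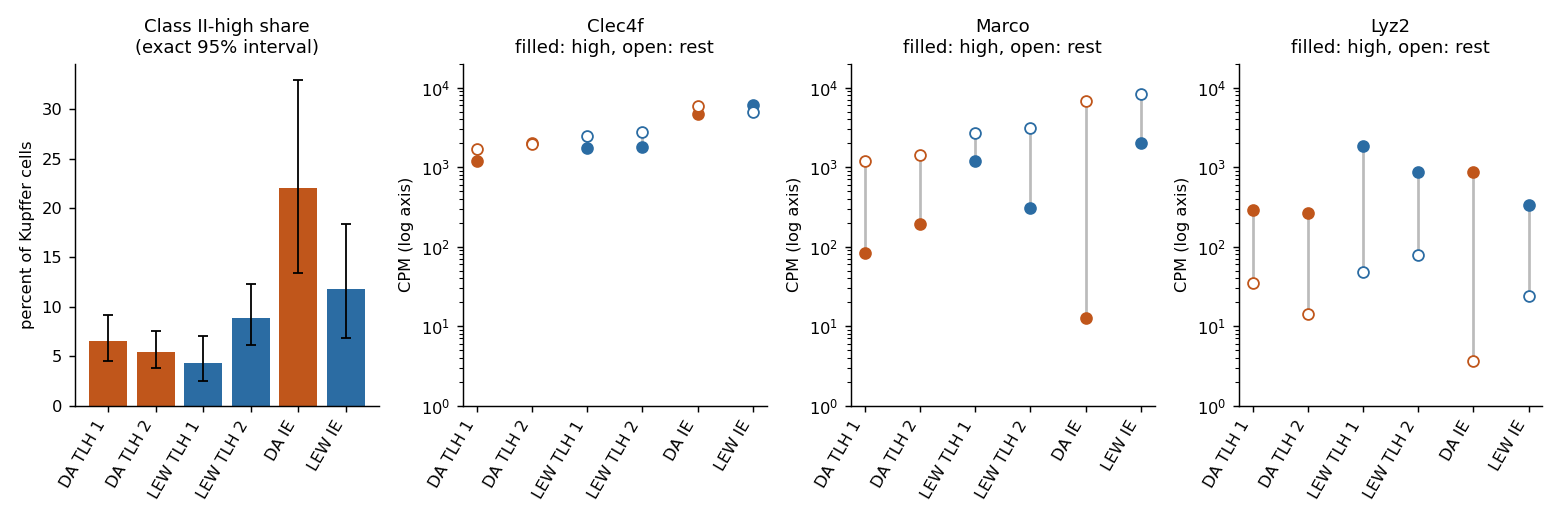
The first panel plots the percent of Kupffer cells that were class II-high in each TLH and immune-enriched (IE) library, with exact 95% binomial intervals, and the others plot CPM (log axis) of Clec4f, Marco and Lyz2 in class II-high (filled) and other (open) Kupffer cells of the same library. Filled Marco points lie below the open ones and filled Lyz2 points above them in all 6 libraries, while the Clec4f points lie close together.

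A few cells carried much of the class II signal of the hepatocyte and endothelial classes. In the hepatocyte class 58 and 43 DA cells and 12 and 7 LEW cells were class II-high, and 58.3% to 100% of them carried at least 2 of 6 leukocyte genes (Tyrobp, Fcer1g, Laptm5, Coro1a, Ptprc, Cybb) against 2.4% to 5.2% of the other cells. Without cells with these genes, the 5 members together fell from 503 to 253 CPM and from 511 to 210 in DA, and from 135 to 87.6 and from 292 to 172 in LEW. The endothelial class went down too, from 357 to 199 and from 429 to 184 CPM in DA and from 266 to 104 and from 509 to 230 in LEW. Mixed droplets and cells of another class inside these gates cannot be told apart.

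The classes held unequal shares of the member UMIs of the kept cells. These are shares of each library and not of the liver, since the study describes cell-type frequencies as confounded by dissociation efficiency. Kupffer cells were 6.36% to 9.37% and the hepatocyte class 58.1% to 73.7% of the kept TLH cells. In the TLH libraries Kupffer cells carried 20.3% to 35.9% of all member UMIs and Lyz2 myeloid cells 8.8% to 25.9%, although the latter numbered at most 38 cells. The hepatocyte class carried 16.9% to 44.7%, of which the 10% of its cells with most member UMIs held 72.6% to 85.1%. In the immune-enriched libraries cDC carried 30.2% in DA and 16.1% in LEW, Lyz2 myeloid cells 25.7% and 20.9%, Kupffer cells 12.0% and 21.3% and B cells 8.3% and 20.2%.

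The strain question was whether DA and LEW, which are used in transplantation for their unlike immune responses, differ in class II transcript within a cell type. It was tested per class on UMI sums per rat in the 4 TLH libraries, LEW minus DA, with edgeR's quasi-likelihood test. In Kupffer cells 0 of 5 members were called, against 5.0% of 6995 genes. Log2 differences were 0.41 (SE 0.39) for RT1-Da, 0.67 (SE 0.60) for RT1-Db1, 0.28 (SE 0.34) for RT1-Ba, 0.19 (SE 0.40) for RT1-Bb and -0.13 (SE 0.39) for Cd74, with adjusted p from 0.635 to 0.902. The median of the 5 was 0.28 and that of all genes -0.01. The second LEW rat was highest of the 4 in every member and the first LEW rat lowest, so the DA rats lay between the LEW rats. Without the first LEW rat, 2 members were called against 3.24% of genes (RT1-Da 0.88, adjusted p = 0.0490, and RT1-Db1 1.23, adjusted p = 0.00602), and without the second LEW rat RT1-Da was -0.27.

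In Lyz2 myeloid cells 0 of 5 were called (1.48% of 1355 genes), with log2 differences from -0.29 (SE 0.25, Cd74) to 0.28 (SE 0.50, RT1-Db1). In B cells 0 of 5 were called, as was 0 of all 578 genes, of which 48 had an unadjusted p under 0.05 (DESeq2 called 0, and 3 of 8101 genes were called with no filter on low counts). Differences there ran from 0.01 (SE 0.36, RT1-Bb) to 0.67 (SE 0.42, RT1-Ba), and Cd74 was called higher in LEW (1.60, adjusted p = 0.0488; 1.13% of genes called) without the second DA rat. In endothelial cells 0 of 5 were called (3.48% of 6270 genes), with differences from -0.34 (SE 0.31, Cd74) to 0.15 (SE 0.24, RT1-Db1).

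The hepatocyte class was the exception, with lower values in LEW. Cd74 fell by 1.49 on the log2 scale (SE 0.27, adjusted p = 0.0425), 1 of 5 members called against 3.78% of 10029 genes, of which 1.97% were called lower. RT1-Bb was -1.21 (SE 0.47, adjusted p = 0.262), RT1-Da -1.05 (SE 0.44), RT1-Ba -0.96 (SE 0.42) and RT1-Db1 -0.88 (SE 0.58, adjusted p = 0.486). Both DA rats lay above both LEW rats in all 5 members, as they did in 31.0% of genes. Without hepatocyte-class cells that carried leukocyte genes, Cd74 was -1.10 (SE 0.25, adjusted p = 0.0722) and 0 of 5 were called (3.11% of genes), as with LEW cells from 1500 UMIs up (-1.37, adjusted p = 0.200; 3.91% of genes). Without the second LEW rat all 5 were called (1.57% of genes), and 0 were without the first DA rat (3.23%) or the second (2.57%). With no filter 2 were called (7.33%) and by DESeq2 3 (3.13%).

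The strain difference itself was compared between classes with an interaction term. Against Lyz2 myeloid cells, the LEW minus DA difference in the hepatocyte class was lower by 1.36 for RT1-Da (SE 0.18, adjusted p = 3.00e-11), by 1.31 for RT1-Bb (SE 0.19, adjusted p = 1.15e-08) and by 1.06 for RT1-Ba (SE 0.18, adjusted p = 7.48e-06). These were 3 of 5 members called against 0.385% of 8321 genes, of which 0.361% were called lower. The fit pooled its error over the sums of all classes from the same 2 rats a strain. Its p-values therefore do not measure the spread between rats alone. In the strain fit of the hepatocyte class by itself none of these 3 was called. RT1-Db1 (-1.28, SE 0.49, adjusted p = 0.723) and Cd74 (-1.32, SE 0.40, adjusted p = 0.567) moved as far with wider errors, and both were called as well without the first DA rat (0.281% of genes) or without the second (0.338%). Without cells with leukocyte genes only RT1-Da was called (-1.004, SE 0.18; 0.277% of genes called). Kupffer (0.0721% of genes), endothelial (0.108%) and B cells (0 of 8321 genes, 381 with an unadjusted p under 0.05, and 1 called with no filter) had 0 of 5 members called against Lyz2 myeloid cells. Without the first DA rat 1 was called in Kupffer cells (RT1-Db1, 0.87; 0.119% of genes), and without the second DA rat 1 in B cells (Cd74, 1.62; 0.0218%).

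**Figure D3:**
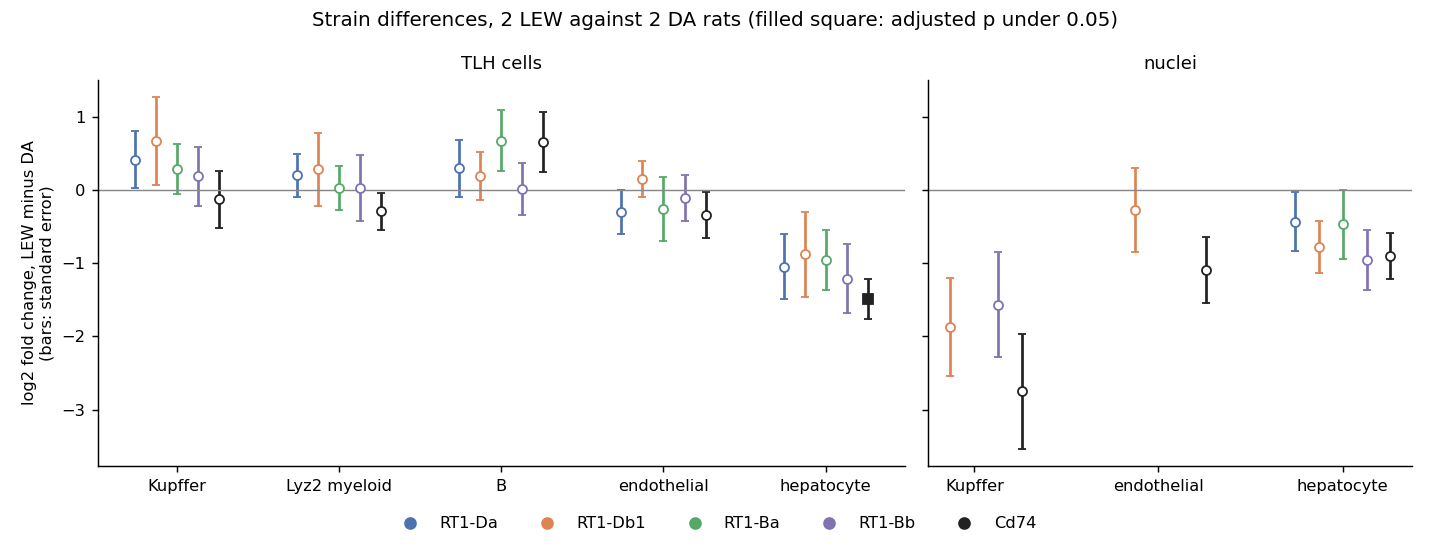
Log2 fold change of LEW over DA with its standard error for each member and class, in TLH cells (left) and nuclei (right), with a filled square where the adjusted p was under 0.05. Points of Kupffer, Lyz2 myeloid, B and endothelial cells lie around 0 in the TLH panel, the 5 hepatocyte points lie at or below -0.88, and Cd74 at -1.49 is the only filled square.

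Dividing by Cd74 of the same class and rat takes out what the 5 genes share. In Kupffer cells RT1-Da was 30.3% and 30.3% of the Cd74 UMIs in DA and 43.5% and 44.3% in LEW. RT1-Db1 was 32.0% and 30.8% in DA and 45.8% and 58.6% in LEW, RT1-Ba 20.1% and 21.1% against 28.0% and 27.1%, and RT1-Bb 19.5% and 21.0% against 24.3% and 25.6%. All 4 class II genes were thus apart with LEW higher, as were 13.4% of the 4425 genes with a mean of at least 20 CPM, and 0 were apart with DA higher (3.1% of genes). In Lyz2 myeloid cells all 4 were apart with LEW higher too (24.0% of genes, against 8.42% with DA higher), with RT1-Da at 34.2% and 37.9% in DA and 51.4% and 51.5% in LEW.

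In the other classes not all 4 genes were apart with LEW higher. In endothelial cells 3 of 4 were apart with LEW higher (21.8% of genes), and in the hepatocyte class 3 of 4 (97.1% of genes, and 0.331% with DA higher, since Cd74 itself was lower there in LEW). In B cells 0 of 4 were apart with LEW higher (6.31%) and 1 was apart with DA higher (RT1-Da, 27.2%), on 26 to 203 Cd74 UMIs a library. With 2 rats against 2 the exact permutation test cannot go below p = 0.333, so these counts are descriptions, and the 4 genes share a denominator. In the immune-enriched Kupffer cells RT1-Da was 58.4% of Cd74 in DA and 74.5% in LEW, and RT1-Db1 and RT1-Bb were also a higher percent in LEW. RT1-Ba went the other way, at 35.2% and 27.1%. In Lyz2 myeloid cells RT1-Da was 74.1% and 73.8%.

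**Figure D4:**
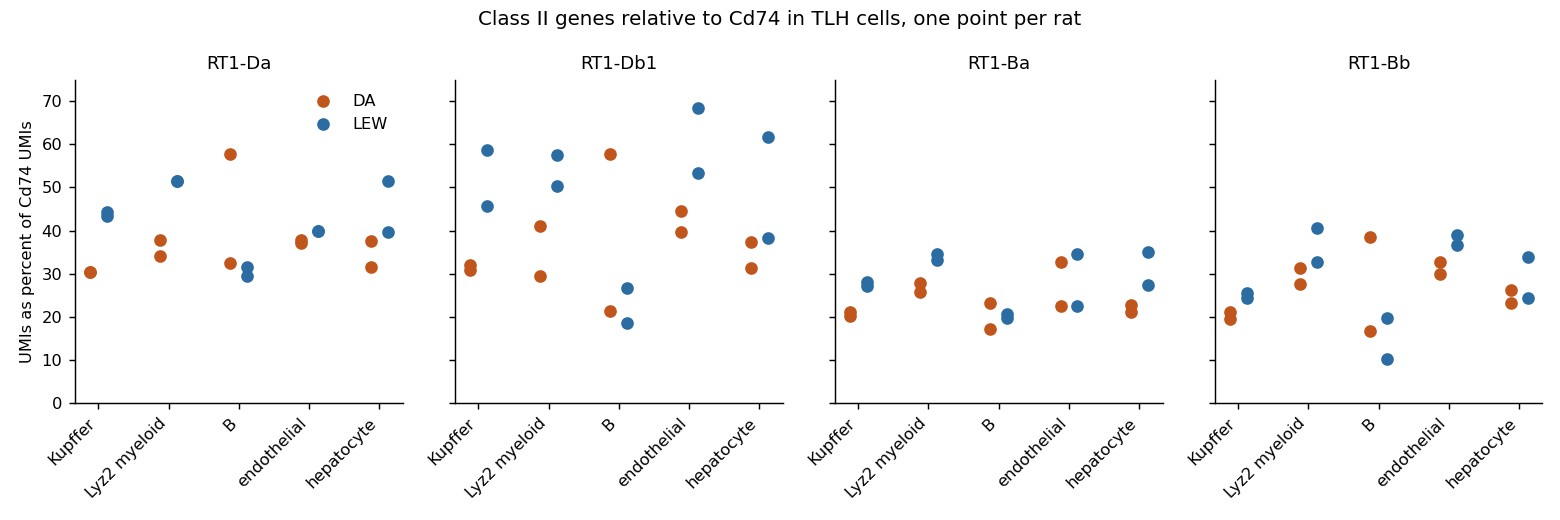
UMIs of each class II gene as a percent of Cd74 UMIs in 5 classes of TLH cells, 1 point per rat with DA in orange and LEW in blue. In Kupffer and Lyz2 myeloid cells the LEW points lie above the DA points in all 4 panels, and in B cells they do not.

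The immune-enriched pair gave a different strain picture in Kupffer cells. DA Kupffer cells (77 cells) had 10946 CPM of the 5 genes together and LEW Kupffer cells (136 cells) 2306, a LEW over DA ratio of 0.211 (exact 95% Poisson interval 0.203 to 0.218, covering counting error only). Each member was higher in DA, by 4.06-fold for RT1-Bb, 4.07-fold for RT1-Da, 4.39-fold for RT1-Db1, 5.20-fold for Cd74 and 6.75-fold for RT1-Ba. The class II-high share was 22.1% in DA (17 cells, exact 95% binomial interval 13.4 to 33.0) and 11.8% in LEW (16 cells, 6.9 to 18.4). The other Kupffer cells differed in the same direction, at 1727 against 251 CPM of the 5 genes. Member UMIs also set which cells these were, so the values are a description. T/NK cells also stood higher in DA, at 2139 CPM of the 5 genes (2241 UMIs in 233 cells) against 181 in LEW (130 UMIs in 149 cells). Member UMIs chose the 3 class II-high DA T/NK cells, and without them the DA value was 33.9 CPM. A like removal in LEW is not given here, so 33.9 is not ranked against 181. In Kupffer cells, Cd74 was found in 59.7% of thinned DA and 16.9% of thinned LEW Kupffer cells.

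Lyz2 myeloid cells were also lower in LEW, with a ratio of 0.432 (0.418 to 0.446). Classical antigen presenters differed less, at 0.938 (0.905 to 0.971) in cDC, 0.809 (0.769 to 0.850) in pDC and 1.14 (1.099 to 1.19) in B cells. Among cDC genes RT1-Bb was higher in LEW (1.25, 1.14 to 1.37) and Cd74 lower (0.810, 0.755 to 0.868), on 4 LEW cells. With 3 distinct markers required, 1 LEW cDC was left and the ratio of the 5 genes was 1.07. Endothelial cells had a ratio of 0.133 (0.123 to 0.145), and 10 of the 225 DA cells were class II-high. It was 0.290 with 3 distinct markers and 0.081 with stricter cell limits (2000 UMIs and 20% mitochondrial UMIs). Without endothelial cells that carried leukocyte genes Cd74 went from 901 to 15.9 CPM in DA and from 128 to 2.7 in LEW. With 1 rat a strain, strain, rat and library cannot be told apart.

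The hepatocyte class of the same libraries was near 0, with Cd74 at 7.1 CPM in DA and 11.3 in LEW, and the ratio of the 5 genes was 1.33 (1.04 to 1.73). It was 0.561 without cells with leukocyte genes and 15.2 with the stricter limits, which left 24 DA and 243 LEW cells. The share of the library's UMIs held by the 5 genes was 0.666% in DA and 0.0579% in LEW, while it was 0.0478% to 0.112% in TLH and 0.00461% to 0.0211% in nuclei libraries. The immune-enriched libraries also differed in class make-up. The hepatocyte class was 13.2% of kept DA and 53.0% of kept LEW cells, and cDC were 1.46% and 0.149%. The part of this make-up in the library share was not tested.

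Kupffer, endothelial and hepatocyte-class nuclei had lower fitted means than cells for every member. In Kupffer nuclei, of which there were 52 to 81 per library, Cd74 was at 157 and 765 CPM in DA and 27.1 and 106 in LEW. RT1-Da was at 29.9 and 249 CPM in DA and 17.3 and 32.0 in LEW, on 4 to 52 UMIs. The second DA library stood above the other 3 in all 5 members, and above the first LEW TLH rat in Cd74 (639 CPM there), RT1-Db1 (335 against 292) and RT1-Bb (201 against 155), so nuclei and cells overlapped in these 3. In the endothelial and hepatocyte classes every nuclei library lay below every TLH library in all 5. The share of all genes apart in this way is not given here, so this count only describes the levels. Against TLH cells, with strain in the model, all 5 members were lower in nuclei of these 3 classes (edgeR, all adjusted p under the threshold). The decreases were 5.15-fold (RT1-Bb) to 10.9-fold (RT1-Ba) in Kupffer cells (32.7% of genes called lower, 66.4% called), 4.64-fold to 7.05-fold in endothelial cells (33.5%, 71.3%) and 10.6-fold to 16.1-fold in the hepatocyte class (34.7%, 72.6%). Without the second DA nuclei library the Kupffer differences were larger, at -4.77 (RT1-Da, -3.24 with it), -4.06 (RT1-Db1, -2.79), -4.59 (RT1-Ba, -3.44), -3.19 (RT1-Bb, -2.37) and -4.29 (Cd74, -3.22) on the log2 scale. Lyz2 myeloid nuclei passed a looser gate than cells, so their levels are set side by side only as a description. They were too few for a test and were not uniformly lower: the 5 genes stood at 15434 CPM (4 nuclei) and 16528 (7) in DA and at 83.3 (5) and 18463 (8) in LEW, against 15759 and 25531 in DA and 16173 and 26930 in LEW TLH cells. Single cDC nuclei of 3 libraries held 171, 197 and 17 member UMIs. With no filter on low counts 4 of 5 were called in Kupffer cells (39.9% of genes). Without cells with leukocyte genes 3 members passed the filter in the endothelial class and all 3 were called (71.4% of genes). Chemistry, sequencing and material changed together between these sets and cannot be told apart.

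Within nuclei the order of classes was kept for Kupffer cells. All 5 members rose from the hepatocyte class to Kupffer nuclei, by 6.90-fold (RT1-Da) to 9.05-fold (RT1-Bb), against 13% of genes called higher and 24.5% called. From endothelial to Kupffer nuclei 4 of 5 rose (5.46% of genes higher, 12.9% called), and Cd74 was 1.94 (SE 0.68, adjusted p = 0.138). Without the second DA library the differences from the hepatocyte class were smaller, at 1.55 (RT1-Da, 2.79 with it), 2.17 (RT1-Db1, 3.0), 2.57 (RT1-Bb, 3.18) and 2.10 (Cd74, 3.07) on the log2 scale, and from endothelial nuclei RT1-Da was 0.66 (1.78 with it, adjusted p = 0.716 without), RT1-Db1 1.49 (2.29) and Cd74 0.89 (1.94). RT1-Ba then missed the filter on low counts, and of the other 4 members 4 and 2 were called (14.1% and 9.16% of genes). Without the second LEW library it missed the filter as well, and 3 and 3 of the other 4 were called (22.3% and 11.3%). Against endothelial nuclei 3 of 5 were called without the first DA (10.6%) or the first LEW library (12.8%), and 5 of 5 without cells carrying leukocyte genes (13.8%). Endothelial nuclei against the hepatocyte class gave 0 of 5 called (31.0% of genes), with log2 differences from 0.71 (SE 0.46, RT1-Db1) to 1.12 (SE 0.68, Cd74), and Cd74 was called (1.21, adjusted p = 0.00659; 18.2% of genes) without the second DA library.

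Between strains, 3 members passed the filter on low counts in Kupffer nuclei and 0 were called (0.379% of 4489 genes). Cd74 was -2.75 (SE 0.78, adjusted p = 0.196), RT1-Db1 -1.88 (SE 0.67, adjusted p = 0.278) and RT1-Bb -1.57 (SE 0.71, adjusted p = 0.394). These values rested on the second DA library, without which Cd74 was -1.23 (adjusted p = 0.652), while 5 members were called without the second LEW library (4.29% of genes), 2 without the first DA (0.182%) and 1 without the first LEW library (2.22%). With no filter 4 were called (1.31%), and with a replicate block 1 (0.267%). In endothelial nuclei 2 members passed the filter and 0 were called (0.483%), with Cd74 at -1.10 (SE 0.45, adjusted p = 0.441). In the hepatocyte class all 5 passed and 0 were called (1.24%), with Cd74 at -0.90 (SE 0.31, adjusted p = 0.287). DESeq2 called 0 members in Kupffer nuclei and the hepatocyte class and gave no adjusted p for the 5 in endothelial nuclei.

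The wider pathway was read from a fixed list of 41 genes, of which 38 were in the tables. Ciita, the transactivator, was higher in Lyz2 myeloid than in Kupffer cells (log2 3.85, SE 0.59, adjusted p = 5.26e-09), at 28.9 to 73.6 CPM against 1.6 to 5.1 in TLH cells. RT1-DOa, a chain of the peptide-loading modulator RT1-DO, was higher too (4.26, SE 0.63, adjusted p = 1.26e-09), as was the tetraspanin Cd37 (1.00, SE 0.34, adjusted p = 0.0390). In all 6 of 30 tested list genes were higher and 8 lower in Lyz2 myeloid cells, where 9.36% of all genes were called. The lower ones included the lysosomal protease Lgmn (-2.86, SE 0.21), the phagosomal metal transporter Slc11a1 (-2.75), the cathepsins Ctsd (-2.17) and Ctsl (-0.64) and the lysosomal membrane protein Lamp1 (-1.61). These 5 were named from the list genes called lower, so their shared direction follows from that choice. The lysosomal list gene Ifi30 overlapped between the classes, at 314 to 538 CPM in Kupffer and 221 to 820 in Lyz2 myeloid TLH cells.

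From endothelial to Kupffer cells 16 of 30 list genes rose, led by Slc11a1 (5.14, SE 0.22), the myeloid factor Spi1 (5.00), Ctss, which cleaves the invariant chain (4.93), Cd37 (4.44) and the costimulator Cd86 (4.00), and 1 fell (Ctsl, -1.95), where 28.5% of all genes were called. From the hepatocyte class to Kupffer cells 20 rose and 3 fell (52.1% of all genes called), led by Ctss (5.32), Slc11a1 (5.02), Cd86 (4.72), Spi1 (4.32) and Lgmn (4.25). Endothelial cells exceeded the hepatocyte class in 6 list genes, among them Cd40 (3.24), Ctsl (1.64), the interferon factor Irf1 (1.31), Lgmn (0.94) and Ctsd (0.86), and were lower in 1. These 7 of 30 were a smaller share than the 38.4% of all genes called. From Lyz2 myeloid to B cells 0 rose and 8 fell (4.22% of all genes called), among them Spi1 (-4.25), Lgmn (-4.05), Ctsb (-1.06) and B2m (-0.83). Ctss and Irf1 were also among the 8, with no UMI in the TLH B cells.

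In nuclei against cells, 3 of 25 list genes were higher and 14 lower in Kupffer cells, a share near the 66.4% of all genes called (32.7% lower), led by Nfyb (1.58), Tap2 (1.36) and Slc11a1 (1.09) and by Ctss (-4.83), Spi1 (-3.32), Ifi30 (-2.69), B2m (-2.52) and Cd37 (-2.005). Between strains, where 5.0% of all genes were called, 2 of 23 list genes were higher in LEW Kupffer cells, Irf1 (1.02, SE 0.19, adjusted p = 0.0120) and Spi1 (0.97, SE 0.16, adjusted p = 0.00671). In endothelial cells (3.48% of all genes called) 1 of 17 was lower in LEW (Irf8, -2.81, adjusted p = 0.0152). In the hepatocyte class (3.78%) 3 of 29 were lower, namely Ctse (-2.61, adjusted p = 0.0499), Irf8 (-1.36, adjusted p = 0.0406) and Cd1d1 (-0.73, adjusted p = 0.0382). Irf8 is known as a factor of dendritic and B cells. In Lyz2 myeloid cells 0 of 6, in B cells 0 of 3 and in nuclei 0 of 16, 18 and 23 tested list genes (Kupffer, endothelial, hepatocyte) were called between strains.

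Of the nonclassical class II genes, RT1-DMa was listed at 0 in every class examined, B cells and cDC included, and RT1-DMb at up to 9.63 CPM. These chains form the RT1-DM exchange factor, and whether the reference used lets reads of RT1-DMa be counted was not tested. RT1-DOa and RT1-DOb were highest in immune-enriched B cells (165 to 283 and 117 to 174 CPM) and DA cDC (112 and 233 CPM). RT1-Db2, the neighbour of RT1-Db1, reached 52.9 to 94.2 CPM in immune-enriched pDC and at most 12.3 CPM in the other immune-enriched classes.

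Levels of the 5 genes moved together across classes and libraries. Over 49 sums of at least 10 cells (TLH and immune-enriched classes), Pearson's r of log2(CPM + 10) between any pair of members was 0.984 to 0.993. These sums share libraries, depth and background, so r is a description. Genes used in the gates were left out of the ranking that follows. The remaining non-member genes most like the mean of the members were Ifi30, the lysosomal thiol reductase that unfolds antigen (r = 0.897), Napsa, an aspartic protease (0.892), Tspo, a mitochondrial membrane protein (0.884), Plac8 (0.879) and Ly86, the partner of the receptor Cd180 (0.873). All 5 had lower r than any member had with another member.

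In the Wistar sections the 5 genes made up 2.93 (A) and 3.26 (B) of every 10000 UMIs, and 87.9% and 87.8% of spots had at least 1 member UMI. The median was 2 member UMIs a spot and the highest 111 in A and 201 in B, and the 10% of spots with most held 45.1% and 48.9%. Position was read from a score of periportal minus pericentral hepatocyte genes, as no spot coordinates were used here. In A the 5 genes stood at 3.72 UMIs per 10000 in the pericentral, 2.08 in the middle and 2.99 in the periportal tercile of spots. In B they stood at 4.86, 2.09 and 2.95. Both sections thus had their lowest level in the middle tercile and their highest in the pericentral one.

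The periportal over pericentral ratio was 0.803 in A (exact 95% Poisson interval 0.767 to 0.840) and 0.607 in B (0.582 to 0.634), where intervals cover counting error only. It was under 1 for each member in both sections, with intervals that leave out 1 except for RT1-Bb in A (0.945, 0.834 to 1.07). Cd74 alone was 1.49, 0.787 and 1.21 per 10000 in A and 1.83, 0.783 and 1.14 in B. The Kupffer marker list had another order, at 2.61, 3.31 and 5.64 per 10000 from the pericentral to the periportal tercile in A and 2.82, 3.94 and 6.60 in B. Class II and Kupffer markers were therefore highest at opposite ends of the score. The mesenchymal list (5.56, 4.51 and 3.97 in A, 6.19, 4.81 and 4.31 in B) and the endothelial list (1.75, 1.43 and 1.29, then 1.71, 1.42 and 1.29) were highest in the pericentral tercile, as class II was. The B list (0.341, 0.161 and 0.220, then 0.284, 0.205 and 0.299) and Lyz2 (0.094, 0.065 and 0.083, then 0.111, 0.093 and 0.115) were lowest in the middle one. Lyz2 summed with its other leukocyte genes instead rose toward the periportal tercile (1.17, 1.26 and 1.68, then 1.27, 1.40 and 1.84). The cDC list fell from the pericentral tercile on in A (0.021, 0.015 and 0.012), while in B its pericentral and periportal values lay close together (0.030, 0.018 and 0.028). Its rates were the lowest of the lists named here. No counting interval is given for any of these lists, so small differences between terciles are not ranked. The part of these lists in the class II pattern was not tested. Spots are not replicates of a condition, and with 2 sections no test was made.

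Spots highest in the summed share of a list of duct and vessel genes (the top 5%: 122 and 120 spots) had more class II. The 5 genes stood at 7.79 per 10000 against 2.73 in the other spots of A, a ratio of 2.85 (2.68 to 3.04), and at 11.96 against 2.91 in B, a ratio of 4.10 (3.89 to 4.33). Each member was higher in these spots, by 2.41-fold (RT1-Bb) to 3.16-fold (Cd74) in A and by 3.60-fold (RT1-Bb) to 4.56-fold (RT1-Db1) in B. The list was meant to find portal tracts, but the data went against that name. The pericentral enzyme Glul was higher in these spots (3.75 against 0.967 in A, 4.15 against 0.898 in B), the periportal Ass1 lower (17.8 against 22.7, 16.4 against 22.4) and the cholangiocyte list little changed (0.520 against 0.476, 0.626 against 0.531). The cholangiocyte list shares Krt19, Krt7, Epcam and Sox9 with the list that chose the spots. They are called duct- and vessel-gene-rich after that choosing list only, and bile ducts are not shown in them. Lyz2 (0.123 against 0.079, 0.211 against 0.102), the cDC list (0.036 against 0.015, 0.098 against 0.022) and the B list (0.556 against 0.227, 0.430 against 0.257) were higher in these spots in both sections. So were the mesenchymal list (6.26 against 4.59, 7.23 against 4.97) and the endothelial list (1.81 against 1.47, 1.79 against 1.45), while the Kupffer list was lower (2.89 against 3.94, 3.81 against 4.59). Their part in the class II level was not tested. The cDC rates were the lowest of these lists, and no counting interval is given for any of them.

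Without these spots the periportal over pericentral ratio of the 5 genes was 0.868 in A and 0.718 in B. Each member stayed under 1 in B, while in A RT1-Bb turned to 1.02 (0.890 to 1.16) and the interval of RT1-Da included 1 (0.915, 0.815 to 1.03). Across spots the members' level went weakly with that of Lyz2 (Pearson's r = 0.174 in A and 0.192 in B), the duct and vessel list (0.192 and 0.195) and the Kupffer list (0.097 and 0.056), values that share the spot's depth and are a description.

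**Figure D5:**
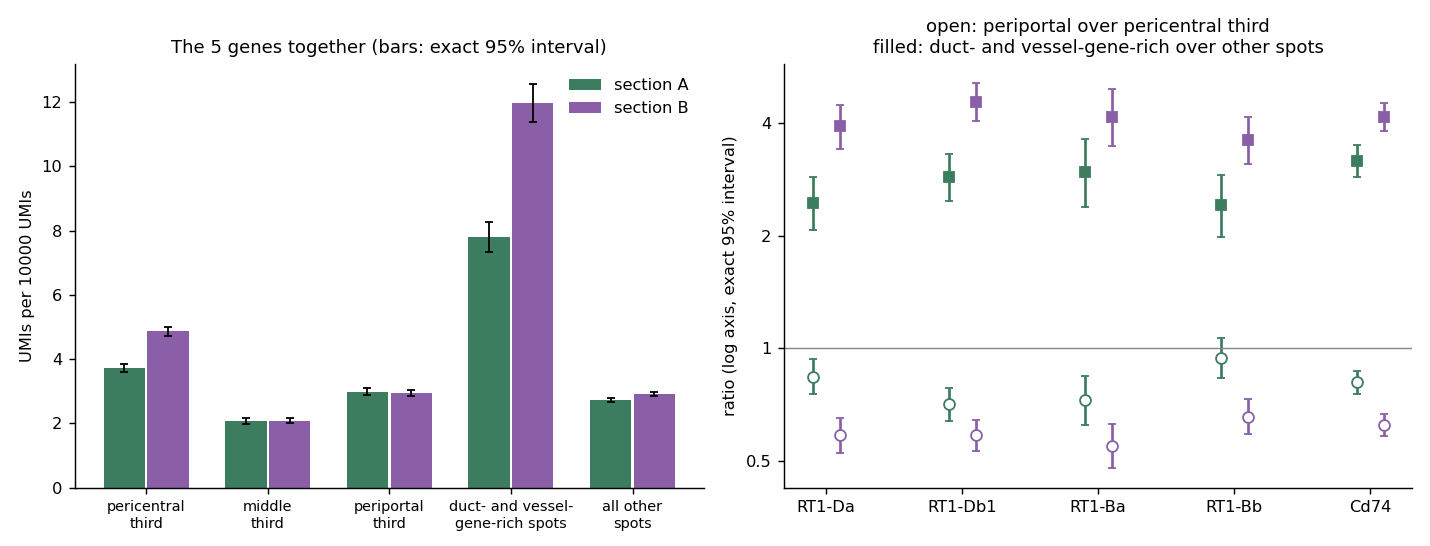
Left, UMIs of the 5 genes per 10000 UMIs by tercile of the zonation score and in duct- and vessel-gene-rich (named after the gene list only) against all other spots of sections A and B. Right, the 2 ratios for each member (log axis). Both panels carry exact 95% Poisson intervals. Bars dip in the middle tercile and are highest in the duct- and vessel-gene-rich spots (7.79 in A and 11.96 in B), all filled ratios lie above 1 and all open ratios below 1.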

How the data were processed

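Per the labels, single cells, nuclei and Visium sections of rat liver were profiled with 10x Genomics 3' kits. The submitters' processing notes name Cell Ranger 3.1.0 and Space Ranger 1.1.0, run against a custom reference named for Rnor 6.0 with Ensembl release 98 genes, and the authors deposited unnormalised counts of UMIs for each gene in each barcode, 1 library per rat or section. The TLH and immune-enriched count matrices carry no gene names here, so their rows were named in the order of the gene list of the other libraries. No column of another sample was found (0 columns). Values of a fold change or p-value made by the authors were not used.

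Barcodes were kept from 1500 UMIs and up to 30% mitochondrial UMIs in the first DA TLH library, 2000 and 20% in the second, 2000 and 40% in LEW TLH, 1000 and 50% in immune-enriched cells and 1000 and 10% in nuclei. For LEW TLH the study states 1500, but 2000 leaves its number of cells, and 1500 was an alternative. No doublet caller was run; a cell passing several gates (94 to 352 per TLH library) went to the class with most markers, ties were left out, and leaving all of them out was an alternative. The hepatocyte class passed no gate and had at least 3 of 6 hepatocyte genes. Shares of cells were taken after thinning each cell to 1000 UMIs, which all kept cells reach. Intervals cover counting error only.

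UMIs were summed per rat and class, and classes with at least 10 cells in each library entered edgeR 4.0.16 (R 4.3.3): filterByExpr, TMM factors, robust quasi-likelihood fit and Benjamini-Hochberg adjustment over all genes tested, with a threshold of 0.05. Strain was fitted per class, class order with the rat as a block, and the difference of strain effects with an interaction term. The SE was the log2 fold change over the root of F. DESeq2 1.42.0 was an alternative. On simulated counts with no change, 0 genes were called. A log2 change of 2 was recovered for 98.0% of changed genes in TLH Kupffer cells (6949 genes) and 79.6% in Kupffer nuclei (4639 genes), and a change of 1 for 44.2% (6964 genes) and 0% (4643 genes). Figures were drawn with matplotlib 3.10.9.

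The 5 members were always named. Of the pathway list, up to 5 genes per direction and comparison were named by size of change among called genes whose samples did not overlap. The 5 genes most like the members were named by Pearson's r among genes of at least 20 CPM that were not used in the gates. Members, lists and gates were chosen with earlier results of these data known.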

Additional observations from a re-analysis of the deposited data

Results flagged for a closer look

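The difference between LEW and DA rats itself differed between cell classes for 3 genes, by an interaction term in edgeR's quasi-likelihood test over the 4 TLH rats. The error of that fit was pooled over all classes of the same rats. The LEW minus DA log2 difference of the hepatocyte class minus that of Lyz2 myeloid cells was -1.36 for RT1-Da, -1.06 for RT1-Ba and -1.31 for RT1-Bb. Beside it, the class II-high share of hepatocyte-class cells was 1.3% and 1.0% in DA and 0.3% and 0.3% in LEW, and the leukocyte genes were carried by 58.3% to 100% of those cells. Without cells carrying leukocyte genes RT1-Da was at -1.004 (adjusted p = 3.09e-05) and RT1-Ba (-0.53, adjusted p = 0.616) and RT1-Bb (-0.77, adjusted p = 0.119) were no longer called. Cd74, which lies outside the MHC, was at -1.32 (SE 0.40, adjusted p = 0.567) in the same comparison.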

How the results depend on the processing

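Of 1740 values under an alternative, 1443 were labelled the same as the main value, by a rule that differed with the kind of value. For fitted log2 differences and their medians it rested on direction, side of the threshold and the size of the move against the error. Immune-enriched and Visium ratios had to stay inside the exact 95% Poisson interval of the main value. Counts, which were 265 of the values, had to stay within a set fold of the main count. The 1443 therefore mixes several criteria. Of 1078 member values, 91 had the other sign, in 0 of which either value passed the threshold. Leukocyte-gene, free-RNA-profile and vessel-spot alternatives were chosen after seeing the data, and causes were not tested unless fewer cells or samples show one. Leaving out 1 library moved the count of called members from 0 to 0 to 2 for strain in TLH Kupffer cells, from 0 to 0 to 1 in B cells, from 1 to 0 to 5 in the hepatocyte class, and from 0 to 0 to 5 in Kupffer nuclei. It gave 0 to 4 for TLH B against Lyz2 myeloid cells, 2 to 3 for Kupffer against endothelial nuclei, 3 to 5 for Kupffer against hepatocyte nuclei and 0 to 1 for endothelial against hepatocyte nuclei. The interaction counts were 0 to 1 in Kupffer and B cells and 3 to 5 in the hepatocyte class. In the TLH hepatocyte class, no filter called 2 (7.33% of all genes, against 3.78%), DESeq2 3 (3.13%), and LEW cells from 1500 UMIs (3.91%) or leukocyte-gene cells left out (3.11%) 0. Without leukocyte-gene cells the hepatocyte interaction called 1 and nuclei against cells called all 3 that passed the filter in the endothelial class. In Kupffer nuclei no filter called 4 (1.31%).

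Replicate numbers only name rats. Deviations of same-numbered samples correlated at -0.185, 0.008, 0.023, -0.146 and -0.268 (TLH Kupffer, Lyz2 myeloid, B, endothelial, hepatocyte) and 0.004, 0.060 and 0.090 (nuclei Kupffer, endothelial, hepatocyte), so the numbers were not taken to pair samples. A replicate block gave 1 called member in Kupffer nuclei (Cd74, -2.62, adjusted p = 0.0422 by edgeR) and changed no other count of calls by over 1.5 times.

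Log2 values with the other sign, none past the threshold, were as follows. With 3 distinct markers, LEW minus DA was -0.018 for RT1-Ba and -0.10 for RT1-Bb in Kupffer and -0.67 for RT1-Db1 in endothelial cells, and endothelial minus hepatocyte RT1-Bb was -0.28. With free RNA subtracted, it was -0.035 for Kupffer RT1-Bb, -0.17 and -0.18 for Lyz2 myeloid RT1-Ba and RT1-Bb, -0.014 and -0.19 for B-cell RT1-Db1 and RT1-Bb and 3.82 for endothelial RT1-Bb. With the profile without leukocyte genes it was -0.10 and -0.19 for Kupffer RT1-Ba and RT1-Bb, -0.15 and -0.15 for Lyz2 myeloid RT1-Ba and RT1-Bb, -0.062 and -0.23 for B-cell RT1-Db1 and RT1-Bb and 0.055 for endothelial Cd74. With LEW cells from 1500 UMIs it was -0.0087 for Kupffer RT1-Bb, -0.092, -0.26 and -0.24 for Lyz2 myeloid RT1-Da, RT1-Ba and RT1-Bb and -0.33 for endothelial RT1-Db1. With cells of several gates left out, endothelial RT1-Da, RT1-Ba, RT1-Bb and Cd74 were 0.23, 0.29, 0.34 and 0.19, and endothelial minus hepatocyte RT1-Bb -0.10. RLE factors gave 0.16 for endothelial minus hepatocyte RT1-Db1 and 0.012 for the endothelial interaction of RT1-Db1. No filter gave -0.025 for endothelial minus hepatocyte RT1-Bb and -0.063 for the Kupffer interaction of Cd74. Without leukocyte-gene cells, endothelial minus hepatocyte was -0.13 for RT1-Bb in cells and -0.55 and -0.014 for RT1-Ba and RT1-Bb in nuclei, and the endothelial interaction of RT1-Ba was 0.012.

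Without 1 library, LEW minus DA in TLH Kupffer cells ran from -0.27 to 0.88 (RT1-Da), -0.25 to 1.23 (RT1-Db1), -0.34 to 0.73 (RT1-Ba), -0.52 to 0.67 (RT1-Bb) and -0.79 to 0.33 (Cd74), in Lyz2 myeloid cells from -0.16 to 0.65, -0.20 to 0.96, -0.37 to 0.46, -0.53 to 0.50 and -0.65 to 0.061, and in endothelial cells from -0.81 to 0.21, -0.18 to 0.48, -1.12 to 0.51, -0.66 to 0.44 and -0.89 to 0.13. In B cells RT1-Da ran from -0.14 to 0.67 and RT1-Bb from -0.14 to 0.16. In nuclei RT1-Db1 ran from -2.58 to 0.23 in Kupffer and -0.90 to 0.078 in endothelial cells, and RT1-Ba from -0.86 to 0.028 in the hepatocyte class. Endothelial minus hepatocyte in TLH ran from -0.41 to 0.0063 (RT1-Da), -0.25 to 0.32 (RT1-Db1), -0.28 to 0.051 (RT1-Ba), -0.11 to 0.38 (RT1-Bb) and -0.43 to 0.12 (Cd74). The Kupffer interaction ran from -0.57 to 0.59 (RT1-Da), -0.67 to 0.87 (RT1-Db1), -0.45 to 0.59 (RT1-Ba), -0.56 to 0.52 (RT1-Bb) and -0.52 to 0.49 (Cd74), that of B cells from -0.59 to 0.45 (RT1-Db1) and -0.62 to 0.76 (RT1-Bb), and that of endothelial cells from -0.75 to 0.29 (RT1-Db1), -0.94 to 0.10 (RT1-Ba), -0.53 to 0.17 (RT1-Bb) and -0.35 to 0.044 (Cd74).

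The immune-enriched LEW over DA ratio of the 5 genes moved in Kupffer cells to 0.142 (3 markers), 0.198 (no cells of several gates) and 0.254 (stricter limits), in Lyz2 myeloid cells to 0.377 (stricter limits), in cDC to 1.07 (3 markers) and 0.984 (no cells of several gates) and in pDC to 0.695 (no cells of several gates). In endothelial cells it was 0.290, 0.111 and 0.081 in the order given for Kupffer cells and 0.168 without leukocyte-gene cells, and in the hepatocyte class 15.2 (stricter limits) and 0.561 (without leukocyte-gene cells). The periportal over pericentral ratio was 0.685 in A and 0.496 in B with 5 bins of spots in place of 3, 0.868 and 0.718 without duct- and vessel-gene-rich spots and 0.757 and 0.549 with 3 genes a side. The ratio of duct- and vessel-gene-rich to other spots was 4.1996 in A and 6.06 in B for the top 2% of spots, and 3.60 in B from 5000 UMIs a spot. In nuclei a member had as few as 0 UMIs in a tested class, and at 2 rats a strain a log2 change of 1 was recovered for 0% to 5.29% of changed genes in simulated nuclei counts and 14.9% to 50.5% in TLH ones.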
